A study of Rattus norvegicus with 12 samples.

Results

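The interaction of mechanical loading with implant material was examined in rat peri-implant bone. For each gene it was taken as the loading effect beside the Nb3 alloy minus the loading effect beside commercially pure titanium (cpTi), where a loading effect is the mean of the loaded libraries minus the mean of the static libraries. It therefore measures whether expression in the dissected tissue changed differently with loading between the implant materials, whatever the source of that difference. Of the 33801 genes in the deposited table, the 15268 that reached 1 FPKM in at least 3 of the 12 libraries were tested, and 18533 were not. At the edge of that filter, the third-highest value was 1.0001 FPKM in the last gene kept and 0.999949 FPKM in the first gene left out. FPKM is the number of fragments per kilobase of transcript, scaled between libraries. A size factor is the median, over genes read in every library, of a library's ratio to the gene's geometric mean. The deposited scale was 0.992 to 1.015 times such a factor recomputed from reads, so it was not scaling by total reads.

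All 4 groups were wild-type rats with a mini implant at the site of the maxillary first molar, and the Nb3 alloy is given in the series title as Zr58Cu25Al14Nb3. In the first group the Nb3 implant was cyclically loaded for 2 weeks, and in the second it stayed static. In the third group a cpTi implant was loaded in the same manner, and in the fourth it stayed static. Bone of 4 mm diameter around each implant gave polyadenylated RNA, with 3 libraries a group. The labels give neither strain, age nor sex. They do not say that libraries of a group came from separate animals either, so the p-values below measure the spread between these libraries, which may be technical.

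Alveolar bone is a composite tissue. Osteoblasts build its collagenous, mineralised matrix, osteocytes buried in that matrix sense strain, and osteoclasts resorb it. The marrow spaces hold maturing red cells, granulocytes and B cells, supported by stromal cells that secrete Cxcl12 and stem cell factor. The periodontal ligament, blood vessels, nerve fibres and oral mucosa lie within a short distance of a tooth socket, and any of them can contribute RNA to a dissected sample.

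Between 12911912 and 22308428 reads were assigned to genes in each library. The loaded Nb3 libraries stood apart from the other 9. Mitochondrially encoded genes took 12, 24.3 and 11.3% of their reads, against 4.31 to 6.86% elsewhere, and 224 to 679 genes had a single read, against 957 to 1267. Replicate 2 of that group was the most extreme of the 12 in both measures. The tissue label could be checked against bone markers in every library: the 23 tested osteoblast genes were above 0 in all 12, Col1a1 ranged from 1373 to 9367 FPKM, and Sost, an osteocyte product, from 93 to 1143 FPKM. Because whole tissue was sequenced, fewer cells of a type and less RNA per cell cannot be told apart in any result below.

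The loading effect differed between the materials for 3089 genes, which is 20.2% of those tested (limma on log2(FPKM + 1), Benjamini-Hochberg adjusted p under 0.05, as for every call below). The interaction was positive in 1285 of them (8.42%) and negative in 1804 (11.8%), and it reached 1 or more in size in 2206. Scaling by total reads, which shifts the median interaction of all genes from -0.02 to -0.18, gave 844 positive and 2386 negative calls. The count fell to 1986 without loaded cpTi replicate 1 and to 2018 without static Nb3 replicate 3. It was 3159 without loaded Nb3 replicate 2. All 3089 genes kept their sign whichever library was left out, and 1817 of them (58.8%) were called each time.

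The shape of the interaction was nearly uniform. A total of 2331 genes had a loading effect of at least 1 beside Nb3 and of less than 1 beside cpTi, 972 of them with a positive interaction and 1359 with a negative one. Only 4 had the reverse pattern, 15 had effects of at least 1 in the same direction beside both materials, 21 in opposite directions, and 718 reached 1 beside neither. With 0.5 as the size of a move, these counts were 2716, 4, 198, 127 and 44. The Nb3 effect was the larger of the pair in 3071 of the 3089 genes. Their median absolute effect was 1.46 beside Nb3 and 0.20 beside cpTi, and over all tested genes it was 0.51 and 0.16. These medians show where the calls lie, since the interaction is computed from the same libraries.

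Each loading effect was also tested on its own. Beside Nb3, 6996 genes were called (45.8%). Beside cpTi 1 gene was called (0.00655%), the small RNA Gm25820, while 1062 genes had an unadjusted p under 0.05, limma-voom on whole reads called 0 and a fit with library weights called 7. The absence of calls beside cpTi does not show that loading had no effect there. Both effects, which share no library, had the same sign in 67.7% of all tested genes and in 78.7% of the genes called beside Nb3. Across the 15268 genes, which are not independent replicates, Pearson's r between the loading effects was 0.30 and Spearman's rho 0.43.

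**Figure D1:**
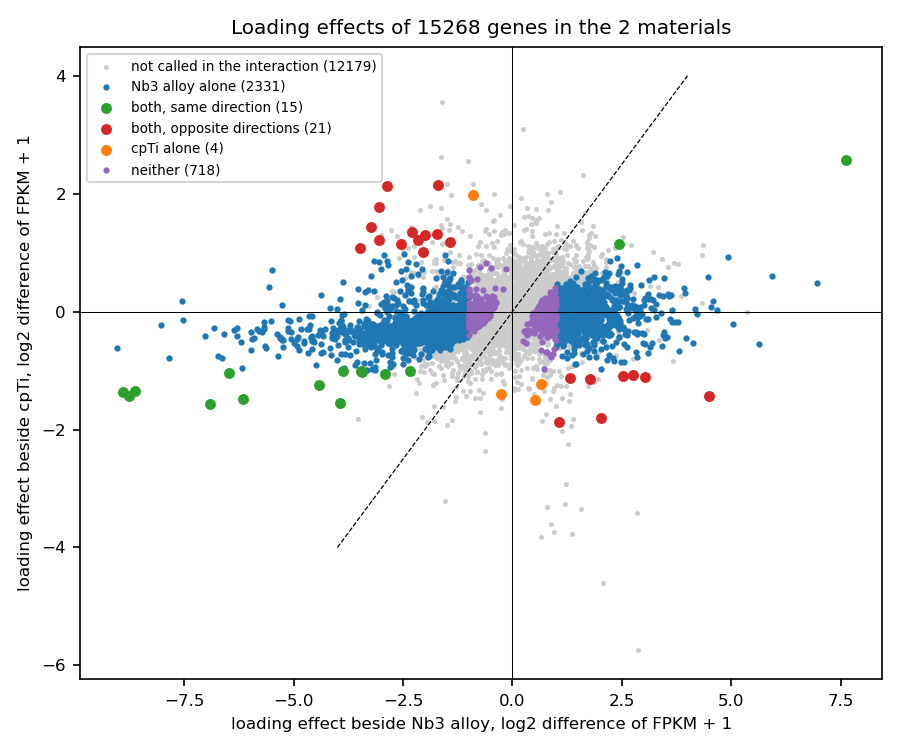
Each point is 1 of 15268 genes; the x axis is the loading effect beside the Nb3 alloy and the y axis that beside cpTi, both as log2 differences of FPKM + 1, with the dashed line marking equal effects. The 3089 interaction genes are coloured by class; the 2331 with an effect of at least 1 beside Nb3 alone lie along the horizontal axis, and the 21 with opposite effects lie in the upper left and lower right.

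The most negative interactions belonged to granule proteins of neutrophils, the phagocytes that mature in marrow. Of 23 tested neutrophil and granule genes, 20 were called negative and none positive, with a median interaction of -5.07 against -0.02 over all tested genes. Mpo (myeloperoxidase, ENSRNOG00000008310), the peroxidase of azurophil granules, measured 0.249, 0.523 and 0.213 FPKM in the loaded Nb3 libraries. In the static Nb3 libraries it measured 566, 530 and 1117 FPKM. Beside cpTi it stood at 367, 477 and 332 FPKM with loading and at 726, 530 and 544 FPKM without. The loaded Nb3 libraries were thus far below the remaining 9, while the loaded cpTi libraries were each below the static cpTi ones by a small margin. The interaction of Mpo was -8.43 ± 0.38 (SE, adjusted p = 9.89e-07), made up of a loading effect of -9.04 beside Nb3 and -0.62 beside cpTi.

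Elane and Ctsg encode serine proteases of the same granules. Elane had an interaction of -7.80 and Ctsg of -7.39, and their effects beside cpTi were -0.23 and -0.14. The granule list summed to 496 to 1073 FPKM in the loaded Nb3 libraries. It summed to 13037 to 31972 FPKM in static Nb3, 9480 to 11298 FPKM in loaded cpTi and 14471 to 21249 FPKM in static cpTi. Loaded cpTi was therefore below static cpTi in all 3 libraries for the summed level, though none of the 23 genes was called beside cpTi.

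All 25 tested erythroid genes were called negative, and the median interaction was -4.79. The erythroid promoters are printed because these genes moved together. Klf1 (ENSRNOG00000003443), the transcription factor that switches on the globin programme, measured 0.977, 1.76 and 0.36 FPKM in loaded Nb3 and 92.9, 103 and 113 FPKM in static Nb3. Beside cpTi it measured 126, 74.2 and 103 FPKM with loading and 142, 146 and 95.2 FPKM without, so those groups overlapped. Its interaction was -5.39 ± 0.38 (adjusted p = 1.75e-05). Rhag, a subunit of the Rh complex of the red cell membrane, gave -5.54. Slc4a1, the band 3 anion exchanger, gave -6.63, and Car1, the red cell carbonic anhydrase, gave -7.74. Tal1, a regulator of early blood progenitors, gave the smaller value of -3.65.

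Promoters of 3 erythroid genes are shown from RefSeq (build GRCr8), each as the 250 bases before the gene's start, 5′ to 3′ on the gene's strand. They are the 3 with the smallest interaction p among erythroid promoters holding AGATAA or TGATAA on either strand, the core that GATA factors recognise, and capitals mark the match. The match begins 31 bases before the start of Rhag (chr9:27594391-27594640, minus strand), 26 bases before that of Klf1 (chr19:40158652-40158901, minus strand) and 72 bases before that of Rhd (chr5:152370950-152371199, plus strand), which encodes the Rh D antigen.
Rhag: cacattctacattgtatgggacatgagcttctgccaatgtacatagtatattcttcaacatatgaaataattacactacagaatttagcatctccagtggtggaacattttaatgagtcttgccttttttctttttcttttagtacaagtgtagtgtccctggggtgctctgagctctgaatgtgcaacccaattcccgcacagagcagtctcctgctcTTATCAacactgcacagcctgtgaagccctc
Klf1: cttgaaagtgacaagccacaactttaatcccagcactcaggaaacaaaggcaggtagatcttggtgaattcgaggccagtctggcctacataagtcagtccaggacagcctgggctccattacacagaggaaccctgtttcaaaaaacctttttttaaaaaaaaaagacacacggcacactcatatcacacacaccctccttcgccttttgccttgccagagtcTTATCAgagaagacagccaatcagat
Rhd: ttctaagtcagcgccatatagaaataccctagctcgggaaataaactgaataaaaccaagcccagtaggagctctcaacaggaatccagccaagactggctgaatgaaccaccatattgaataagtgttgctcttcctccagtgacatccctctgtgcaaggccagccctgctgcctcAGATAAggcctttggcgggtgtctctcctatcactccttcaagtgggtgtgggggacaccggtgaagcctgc

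A promoter sequence was available for 9690 tested genes, matched by symbol, and was searched over 250 bases before and 50 after the start. The GATA core occurred in 10 of 18 erythroid promoters (55.6%) and in 957 of all 9690 (9.88%). It occurred in 12% of promoters of genes with a negative interaction and in 8.28% of those with a positive one. CACCC, the core of Klf motifs, occurred on either strand in 13 of the 18 erythroid promoters (72.2%) and in 62.6% of all. Neither motif contains the other, and a match describes letters in the window only.

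B lineage genes followed in the same direction with smaller values. Of 23 tested, 14 were called negative and none positive, with a median of -1.71. Rag1, the recombinase of developing lymphocytes, had an interaction of -2.92, and Pax5, the factor that holds B cell identity, of -3.10. Platelet and mast cell genes were also negative: 8 of 11 megakaryocyte genes were called, among them Gp9 (-4.15) of the von Willebrand factor receptor and Itga2b (-3.66) of the fibrinogen receptor. Among 10 mast cell genes 7 were called, including Ms4a2 (-3.18), a chain of the high-affinity IgE receptor.

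T and NK cell genes were mostly not called. Only Nkg7, a granule protein of cytotoxic cells, was called among 13, and the list's median of 0.10 had no stable sign, turning to -0.016 under total reads scaling and to between -0.05 and 0.46 when single libraries were left out. In the monocyte and macrophage list 19 of 23 genes were not called, and the calls, 2 in each direction, were near or below the 8.42% and 11.8% over all genes, with a median of -0.03. Apoe (3.53) and Trem2 (1.49), both made by lipid-handling macrophages, were positive. Cd163 (-2.92), the haemoglobin scavenger receptor, and Ccr2 (-1.94), the monocyte chemokine receptor, were negative. The Ccr2 call was lost without static Nb3 replicate 3, loaded cpTi replicates 1 or 3, or static cpTi replicate 2.

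Each of the 28 tested cell cycle genes was called negative, with a median of -2.85. Mki67 (ENSRNOG00000028137), the marker of cycling cells, measured 2.5, 3.6 and 2.31 FPKM in loaded Nb3 and 121, 102 and 154 FPKM in static Nb3. Beside cpTi it measured 114, 68.6 and 97.9 FPKM with loading and 137, 129 and 114 FPKM without. The loaded Nb3 libraries were below all others, and the cpTi groups overlapped. The interaction was -4.59 ± 0.30 (adjusted p = 1.15e-05). Top2a, which untangles chromosomes, Plk1, a mitotic kinase, and Ccnb2, a mitotic cyclin, gave -3.92, -3.82 and -4.36. The marrow lists moved in the same libraries as the cycle genes, and their part in this result was not tested.

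Extracellular matrix proteins were among the groups with positive interactions. In the collagen and matrix assembly list, 17 of 30 tested genes were called positive and none negative, with a median interaction of 1.76, a median effect of 2.31 beside Nb3 and of 0.42 beside cpTi. Fmod (fibromodulin, ENSRNOG00000003183), a proteoglycan that guides collagen fibril assembly, measured 63.4, 71.3 and 36.9 FPKM in loaded Nb3 and 1.87, 2.15 and 2.64 FPKM in static Nb3. Beside cpTi it measured 2.16, 6.4 and 6.11 FPKM with loading and 5.31, 10.9 and 5.62 FPKM without. The loaded Nb3 libraries exceeded all others, and the cpTi groups overlapped. Its interaction was 4.66 ± 0.51 (adjusted p = 0.000179).

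Thbs2, a matricellular thrombospondin, had the largest positive interaction among the genes named by rule, 6.18 ± 1.16 (adjusted p = 0.005). It measured 119, 229 and 72.5 FPKM in loaded Nb3 and 0.961 to 2.07 FPKM in static Nb3, while the cpTi libraries were scattered from 1.25 to 32.5 FPKM in both states. Mgp, an inhibitor of mineralisation, gave 4.48. Eln, the elastic fibre protein, gave 3.79, and Loxl1, which crosslinks it, 1.98. Postn, the matricellular protein of periosteum and ligament, gave 3.89 and was the 1 called member among 23 osteoblast genes. In the matrix breakdown list 9 of 20 were positive, among them Timp1 (2.91), an inhibitor of metalloproteinases, and Plat (3.23), the tissue plasminogen activator. The single negative member was Mmp8 (-5.36), the collagenase stored in neutrophil granules.

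Vessel wall and nerve genes were called positive in larger shares than the matrix list. Of 17 endothelial genes 13 were called positive, with a median of 1.63, including Nos3 (2.83), the endothelial nitric oxide synthase, and Pecam1 (1.96), a junction protein. Of 16 smooth muscle and pericyte genes 10 were called positive, with a median of 2.06. Acta2 (smooth muscle actin) measured 148, 169 and 122 FPKM in loaded Nb3 and 14.4, 20.1 and 13.2 FPKM in static Nb3. It measured 19.2, 55.8 and 46 FPKM in loaded cpTi and 48.4, 81.3 and 45.8 FPKM in static cpTi, and its interaction was 3.74. Tagln and Cnn1, both contractile proteins, gave 3.96 and 2.74. Of 16 Schwann cell and nerve genes 13 were called positive, with a median of 2.20, including S100b (2.14), a calcium-binding protein of glia, and Sox10 (3.11), a transcription factor of glial cells.

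In the static libraries the median difference of Nb3 from cpTi was -0.39 for matrix, -0.61 for smooth muscle and -0.88 for Schwann cell genes, but -0.11 for endothelial genes, against 0.00 over all tested genes. Under loading it was 1.27, 1.16, 1.35 and 1.44 in the same order. No gene was called between the materials without loading (0% called, 470 genes at an unadjusted p under 0.05, 0 by limma-voom and 3 with library weights). Part of the interaction in the first 3 lists is thus arithmetically carried by the static groups. Of the ligament markers 3 of 9 were called positive (median 2.48). The median static difference of skeletal muscle genes was 0.07. The 11 muscle genes summed to 228, 1069 and 11.2 FPKM in the loaded Nb3 libraries and to 14.3 to 52.1 FPKM in the other 9, and Des was the 1 muscle gene called, though not on whole reads (adjusted p = 0.0624). From 9 to 11 of the 11 were above 0 in each library. The collagen list's median in the separate loaded Nb3 libraries was 2.16, 2.41 and 2.11, in the order of the muscle sums above. The part of muscle in the matrix result was not tested.

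**Figure D2:**
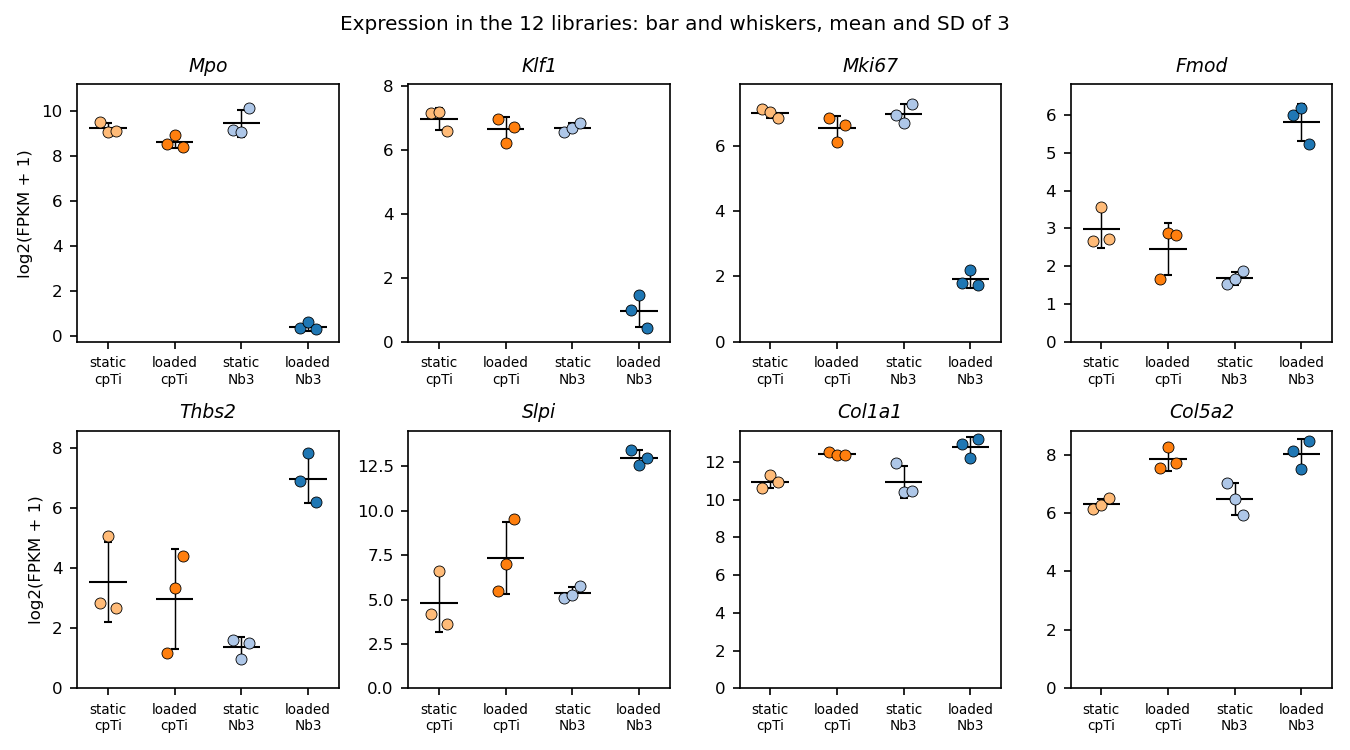
Expression of 8 genes in the 12 libraries as log2(FPKM + 1) on the y axis, by group on the x axis; points are libraries, bars and whiskers the mean and SD of 3. For Mpo, Klf1, Mki67, Fmod, Thbs2 and Slpi the loaded Nb3 libraries lie apart from the other 9, while Col1a1 and Col5a2 are higher with loading beside both materials.

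Secreted inflammatory factors were also positive. Of 24 cytokines and chemokines 12 were called positive and 1 negative, Cxcl12, with a median interaction of 2.28. Cxcl13, a B cell attractant, measured 418, 407 and 48.4 FPKM in loaded Nb3 and 0.894 to 11.2 FPKM in the other 9 libraries, giving 5.33 (adjusted p = 0.0148). Arg1 and Acod1, enzymes of activated macrophages, were below 1 FPKM in all 9 other libraries. In loaded Nb3 Arg1 measured 16.2, 128 and 24.7 FPKM and Acod1 11.7, 105 and 15.2 FPKM, with the highest value of each in replicate 2. Their interactions were 5.25 and 4.64. On the whole-read scale of limma-voom these 3 genes were not called, with adjusted p of 0.0873 for Cxcl13, 0.0843 for Arg1 and 0.174 for Acod1.

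Signalling lists showed partial shifts, to be read against 8.42% of all tested genes called positive and 11.8% called negative. Among 19 YAP and TAZ genes 9 were positive and none negative, including Ccn2 (2.12), a matrix-associated growth factor that YAP induces, and Wwtr1 (1.40), which encodes TAZ itself. Of 20 mechanosensing genes 6 were positive and 1 negative, led by Cav1 (3.06), the scaffold of caveolae. Of 26 Wnt genes 7 were positive and 2 negative, with Wnt5a at 1.68, Wnt4 at 1.43 and the antagonist Dkk2 at 1.43. The negative calls in the mechanosensing and Wnt lists were below the share over all genes. In the BMP and TGF-beta list 3 of 32 were positive, near the 8.42% called positive over all genes: Id1 (1.36), a BMP target, and the BMP and activin binders Fst (1.60) and Chrd (1.64). The Chrd call was lost on the whole-read scale (adjusted p = 0.0573) and without static Nb3 replicates 2 or 3, loaded cpTi replicates 1 or 3, or static cpTi replicates 1 or 2. Among 18 immediate early genes 6 were positive, Jun at 1.62 among them.

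No nuclear-encoded respiratory chain gene (0 of 22) and no cytosolic ribosomal protein gene (0 of 28) was called, against 20.2% of all tested genes. The list medians were 0.04 and 0.16. By contrast 18 of 32 mitochondrially encoded genes were positive, with a median of 2.00. Mt-co1, a subunit of cytochrome oxidase, measured 24587, 61939 and 23448 FPKM in loaded Nb3 and 7624 to 12601 FPKM in the other 9 libraries. The mitochondrial read share given above is the sum of these genes. When FPKM was rescaled to nuclear reads, 3017 genes were called, 1202 positive and 1815 negative.

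**Figure D3:**
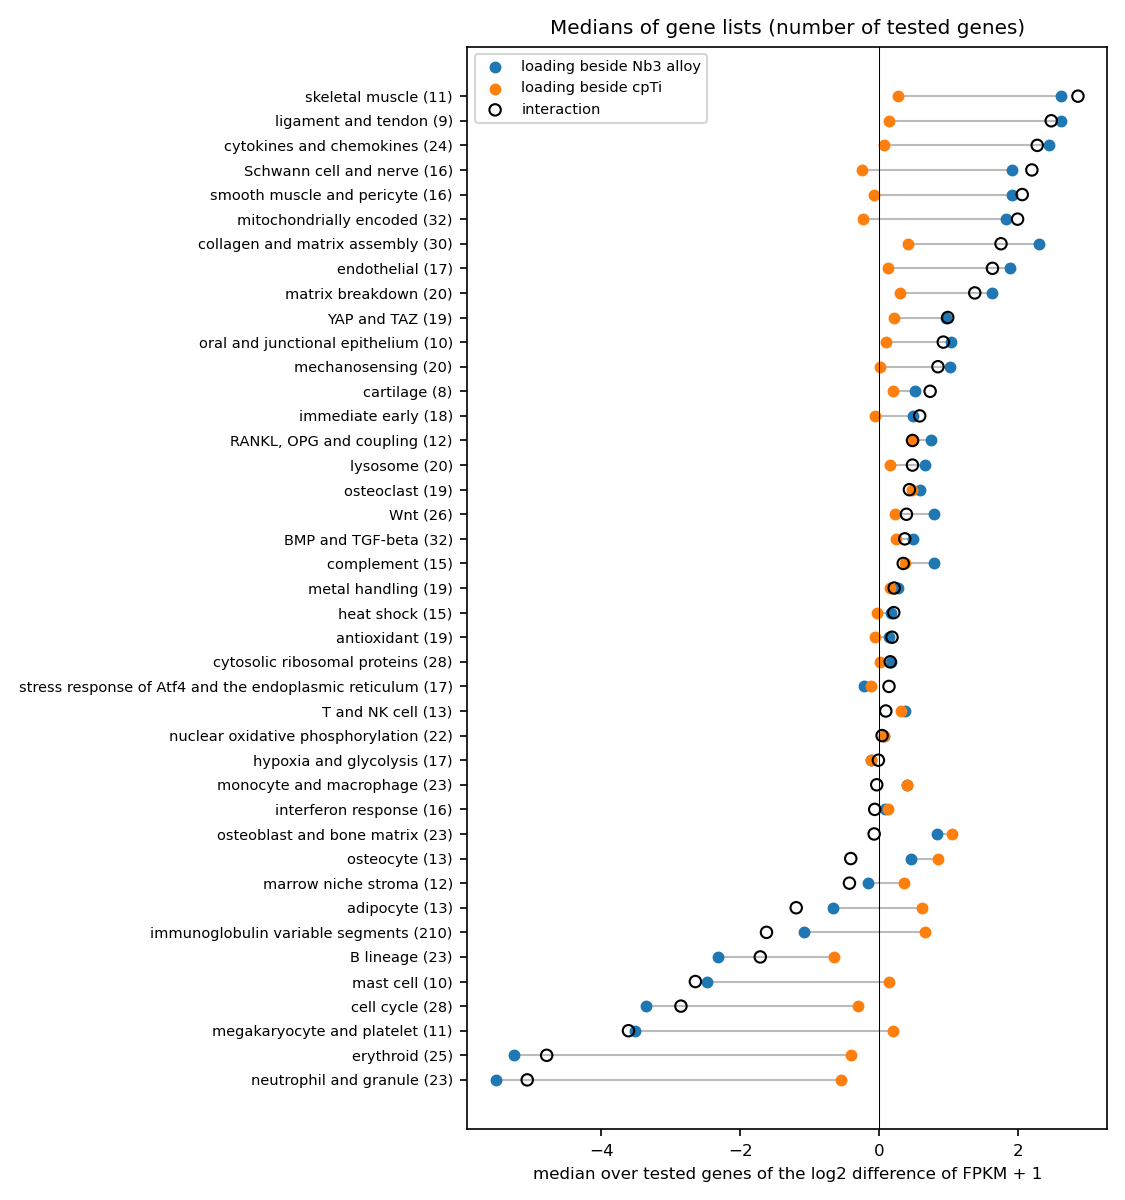
Medians over the tested genes of 40 gene lists and the immunoglobulin variable segments, with the number tested in brackets; the x axis is a log2 difference of FPKM + 1 and the points are loading beside Nb3 (blue), loading beside cpTi (orange) and the interaction (open). Orange points stay between -0.66 and 1.05, and blue points reach from -5.51 for neutrophil genes to 2.63 for skeletal muscle genes.

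Among the 15 genes with effects of at least 1 in the same direction beside both materials, 2 were higher with loading and 13 lower. Slpi, a secreted protease inhibitor of mucosal epithelium and phagocytes, measured 10886, 6006 and 8171 FPKM in loaded Nb3 and 33.4, 37.5 and 52.8 FPKM in static Nb3. Beside cpTi it measured 43.9, 129 and 741 FPKM with loading and 16.9, 95.4 and 11.1 FPKM without, so these groups overlapped. Its interaction was 5.05 ± 1.33 (adjusted p = 0.0226), with effects of 7.61 beside Nb3 and 2.56 beside cpTi. The limma-voom fit on whole reads gave an adjusted p of 0.0518.

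C1qtnf6, a secreted C1q-like protein, was the steadier of the pair. It measured 36.6, 42.9 and 39.7 FPKM in loaded Nb3 and 8.46, 6.16 and 5.35 FPKM in static Nb3. In loaded cpTi it measured 12.4, 16.5 and 16.2 FPKM and in static cpTi 4.39, 8.09 and 6.46 FPKM. Neither material's loaded and static libraries overlapped, and the increase beside Nb3 (2.43) exceeded the value beside cpTi (1.15) by 1.28 ± 0.29 (adjusted p = 0.0117).

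The 13 genes lower with loading beside both materials included granulocyte defensins and B lineage genes. Np4, an alpha-defensin of neutrophils, measured 5.72, 9.58 and 2.82 FPKM in loaded Nb3 and 1695, 2583 and 3795 FPKM in static Nb3. It measured 673, 1063 and 1387 FPKM in loaded cpTi and 2855, 2409 and 2340 FPKM in static cpTi. No loaded library reached a static one of its material. The effects were -8.62 and -1.34, and the interaction -7.28 ± 0.57 (adjusted p = 3.25e-05). Its relatives Defa5, RatNP-3b and Defa11 gave -7.34, -7.54 and -4.68. Defensin genes are near-identical copies, and reads shared between them could be split in ways that the sources do not state. Spib, a transcription factor of B cells, had effects of -4.42 and -1.25. Vpreb3, a precursor B cell protein, had -3.44 and -1.03, and Ms4a6b, a membrane protein of the CD20 family, -3.86 and -1.0. None of the cpTi effects in this class passed the adjusted threshold.

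Opposite directions were rare at a size of 1 in both materials. At any size, the effects had opposite signs in 934 of the 3089 interaction genes (30.2%). The cpTi effect was under 0.5 in size in 2760 of the 3089, which by itself keeps the class small. In the 21 genes with opposite effects of at least 1, 8 were higher with loading beside Nb3 and lower beside cpTi, and 13 the reverse. None of their cpTi effects was called on its own. The class was chosen on effects that both include static libraries, which itself favours a static difference. The static materials differed by at least 1 in 13 of the 21 (61.9%), against 81 of all 3089 interaction genes (2.62%). The loaded Nb3 libraries lay below all other 9 in 6 of the 21 and above them in none. Over all tested genes they lay below in 21.2% and above in 15.2%. The class was also sensitive to single libraries, with 46 genes without loaded cpTi replicate 2 or static cpTi replicate 1, 44 without static cpTi replicate 3 and 12 without static cpTi replicate 2.

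Igfbp6 (ENSRNOG00000010977), a binding protein with preference for insulin-like growth factor 2, had the most balanced pair of effects. It measured 9.73, 14.6 and 5.26 FPKM in loaded Nb3 and 1.41, 2.85 and 0.664 FPKM in static Nb3. In loaded cpTi it measured 1.63, 8.92 and 3.28 FPKM and in static cpTi 8.75, 22 and 20.3 FPKM. Loaded and static libraries did not overlap beside Nb3, and beside cpTi 1 loaded library (8.92 FPKM) exceeded 1 static library (8.75 FPKM). The effects were 2.03 (called) and -1.81 (adjusted p = 0.606), and the interaction was 3.84 ± 0.75 (adjusted p = 0.0057). The mean was lowest in static Nb3 (1.64 FPKM) and highest in static cpTi (17 FPKM), and it stood at 4.61 FPKM in loaded cpTi and 9.87 FPKM in loaded Nb3.

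Pthlh (parathyroid hormone-related peptide), a regulator of chondrocyte and osteoclast formation, was listed at 0 in static Nb3 replicates 1 and 2 and at 0.131 FPKM in replicate 3. With loading it measured 4.02, 7.5 and 4.04 FPKM. Beside cpTi it measured 0, 0.571 and 0.22 FPKM with loading and 0.761, 4.59 and 0.873 FPKM without. Loaded and static libraries separated in both materials, in opposite orders, and the interaction was 3.61 ± 0.57 (adjusted p = 0.00181). Mfap4, a microfibril protein, ran from 13.8 to 162 FPKM in loaded Nb3 and from 0.763 to 1.01 FPKM in static Nb3. It ran from 0.799 to 6.46 FPKM in loaded cpTi and from 5.8 to 16 FPKM in static cpTi, with an interaction of 5.92.

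Cpxm2 and Coch, a carboxypeptidase-like secreted protein and the matrix protein cochlin, had interactions of 4.14 and 2.91. For both, the loaded Nb3 group held 1 high library, replicate 2, at 56.2 FPKM for Cpxm2 against 6.36 and 1.44 FPKM in the others, and at 10.3 FPKM for Coch against 0.97 and 2.4 FPKM. Of the 12 fits that each left out 1 library, Cpxm2 was called in those without loaded Nb3 replicates 2 or 3, loaded cpTi replicate 2 or static cpTi replicate 1, and Coch in those without loaded Nb3 replicate 1, loaded cpTi replicate 2 or static cpTi replicate 1. Neither was called on whole reads (adjusted p = 0.173 and 0.0863).

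In the reverse direction, Crym, a thyroid hormone-binding protein, measured 0.924, 1.13 and 9.18 FPKM in loaded Nb3 and 20.3, 13 and 15.5 FPKM in static Nb3. It measured 35.6, 19.2 and 18.4 FPKM in loaded cpTi and 9.64, 7.67 and 8.26 FPKM in static cpTi. Loaded libraries were below static ones beside Nb3 and above them beside cpTi, without overlap, and the interaction was -3.65 ± 0.74 (adjusted p = 0.00686). Bex4, Lepr, Cxcl12 and Mcpt1l1 had the same pair of signs with effects under 1 beside cpTi, so they are not among the 21. Bex4, a small adaptor protein, measured 1.21, 0.408 and 0.0607 FPKM in loaded Nb3 and 8.04 to 18.5 FPKM in static Nb3. Beside cpTi it measured 25.5, 12.4 and 18 FPKM with loading and 13.4, 8.92 and 7.12 FPKM without, and its interaction was -3.90.

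Lepr, the leptin receptor that marks marrow stromal cells, had effects of -2.22 beside Nb3 and 0.81 beside cpTi, with an interaction of -3.03 (adjusted p = 0.0332). It measured 12.4, 1.52 and 19.6 FPKM in loaded Nb3 and 15 to 53.3 FPKM in the other 9 libraries. The call was lost in 7 of the 12 fits that left out 1 library, namely static Nb3 replicates 1 and 3, each loaded cpTi library, and static cpTi replicates 1 and 2. Cxcl12, the chemokine of the same stroma, had effects of -1.74 and 0.57. It measured 103, 89.1 and 133 FPKM in loaded Nb3, 314 to 393 FPKM in static Nb3, 281 to 476 FPKM in loaded cpTi and 166 to 311 FPKM in static cpTi. Its interaction of -2.32 ± 0.39 (adjusted p = 0.00258) was called in every left-out fit. In the marrow niche list 3 of 12 genes were called negative, against 11.8% over all tested genes: Lepr, Cxcl12 and the adhesion molecule Vcam1. The Vcam1 call held in 4 of the 12 left-out fits (without loaded Nb3 replicate 3, loaded cpTi replicate 2, or static cpTi replicates 1 or 3). All 12 effects beside cpTi were positive, between 0.06 and 0.81, and none was called. The list's median log2 difference from the static cpTi mean was 0.61, 0.39 and 0.21 in loaded cpTi. It was 0.18, -0.55 and 0.30 in static cpTi, so these groups overlapped.

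Mcpt1l1, a mast cell protease, had effects of -2.85 and 0.79. Among the 21 genes were also small nuclear and nucleolar RNAs near the filter: U2 stood at 0 to 2.84 FPKM, Snord37 at 0 to 9.11 FPKM and SNORD63 at 0 to 7.37 FPKM. Polyadenylated RNA libraries do not sample such RNAs evenly, and SNORD63 was not called on whole reads (adjusted p = 0.0525).

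**Figure D4:**
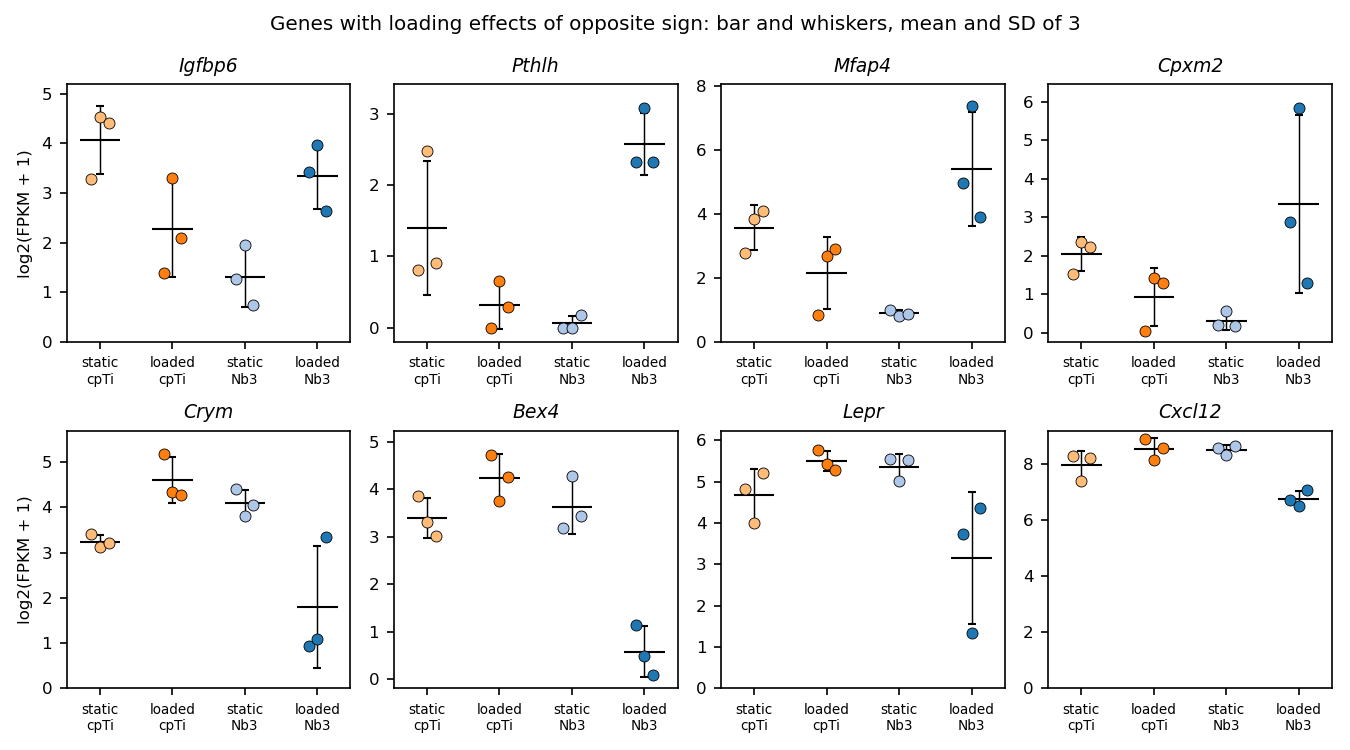
Expression of 8 genes with loading effects of opposite sign as log2(FPKM + 1) on the y axis, by group on the x axis; points are libraries, bars and whiskers the mean and SD of 3. Igfbp6, Pthlh, Mfap4 and Cpxm2 are higher with loading beside Nb3 and lower beside cpTi, and Crym, Bex4, Lepr and Cxcl12 the reverse.

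Immunoglobulin variable segments made up 8 of the 13 genes lower beside Nb3 and higher beside cpTi, and none of the 8 of the other direction. This group was picked out after the class had been seen. Of 210 tested segments, 22 were called negative and 1 positive, which is near the background of 11.8% negative calls, yet the median interaction was -1.62. The sign pair, negative beside Nb3 and positive beside cpTi, was found in 143 of the 210 (68.1%) and in 14.4% of all tested genes. The summed level was 3861, 3093 and 1397 FPKM in loaded Nb3 and 3015, 2525 and 2483 FPKM in static Nb3, which overlapped. In loaded cpTi it was 5394, 4485 and 3298 FPKM and in static cpTi 1977, 1441 and 2855 FPKM, which did not. Related variable segments can be similar enough for reads to be split between them, and single segments differ by clone, so the values of any 1 of them are uncertain.

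In 4 interaction genes the loading effect was at least 1 beside cpTi and smaller beside Nb3, and all 4 are named here after their values were seen. Nr4a1, an immediate early nuclear receptor, measured 5.85, 7.26 and 6.21 FPKM in loaded cpTi and 26.2, 19.4 and 15.6 FPKM in static cpTi. Beside Nb3 it measured 11.6, 29.8 and 11.1 FPKM with loading and 6.74, 20 and 8.77 FPKM without. The effects were -1.50 beside cpTi and 0.52 beside Nb3, neither of them called, and the interaction was 2.02 ± 0.57 (adjusted p = 0.0306). Its call was lost in 6 of the 12 fits that left out 1 library, those without static Nb3 replicates 1 or 3, loaded cpTi replicates 1 or 3, or static cpTi replicates 1 or 2. The others were the nucleolar RNA Snord95, with -1.24 beside cpTi and no call on whole reads (adjusted p = 0.0962), an immunoglobulin kappa segment and a small nucleolar RNA listed at 0 in 8 of the 12 libraries. By the rule for named genes, which asks for an Nb3 effect under 0.5, this class named no gene.

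A larger set moved in both materials without a called difference. For 510 genes (3.34%) both effects had one sign and a size of at least 0.5, the averaged loading effect was called and the interaction was not; 272 were higher and 238 lower with loading. The averaged effect was called for 5713 genes in all (37.4%). It includes the Nb3 effect, and the cpTi effect had to reach 0.5 but needed no call of its own. Beside cpTi, 1 of the 15268 tested genes was called. A missing call in the interaction does not show equal effects, and the intervals below give the room that remains.

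Fibrillar collagen of bone was in this set. Col1a1 (ENSRNOG00000003897), the main chain of bone collagen, measured 7887, 4714 and 9367 FPKM in loaded Nb3 and 3878, 1373 and 1422 FPKM in static Nb3. It measured 5816, 5284 and 5304 FPKM in loaded cpTi and 1570, 2520 and 1983 FPKM in static cpTi. Every loaded library exceeded every static one of both materials. The averaged effect was 1.65 (adjusted p = 0.00158), with 1.84 beside Nb3 and 1.46 beside cpTi. The interaction was 0.38, with a 95% interval from -0.91 to 1.68, and turned to -0.79 under quantile normalization, where the most abundant genes are tied to shared ranks.

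Col5a2, which nucleates collagen I fibrils, had nearly equal effects of 1.56 and 1.53 and an interaction of 0.03, with an interval from -0.94 to 1.0. It measured 278, 179 and 356 FPKM in loaded Nb3 and 128, 87.5 and 60.5 FPKM in static Nb3, and 183, 304 and 209 FPKM in loaded cpTi and 70.1, 75.8 and 89.3 FPKM in static cpTi. The groups overlapped beside neither material. Panx3, a channel of osteoblasts, had effects of 1.60 and 2.32, and its loaded Nb3 libraries measured 40.5, 4.78 and 42.1 FPKM. Col1a2 and Cgref1, a secreted growth regulator, also belonged here. The genes lower in both materials included Vpreb1, part of the surrogate light chain of precursor B cells, with effects of -1.58 and -1.62, and Nup210l, with -1.82 and -1.25. Nup210l was called in the interaction on whole reads (adjusted p = 0.0488).

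Bone-forming genes as a group showed the same arrangement. Of 23 tested osteoblast and bone matrix genes, 1 was called in the interaction (Postn) and 9 were in the set that moved in both materials. All 23 effects beside cpTi and 22 of 23 beside Nb3 were positive, with medians of 1.05 and 0.83 and a median interaction of -0.07. In the separate loaded libraries the list's median was 1.44, -0.27 and 1.64 beside Nb3 and 0.80, 1.41 and 1.03 beside cpTi, each against the static mean of that material. Loaded Nb3 replicate 2 was thus the library whose list median did not rise, and without it the median interaction became 0.67. The list's summed level in that library, 14982 FPKM, was still above the 5795 to 11900 FPKM of the static Nb3 libraries. That library also had the highest mitochondrial share and the highest muscle sum, and their part in the result was not tested. The medians of the 13 osteocyte genes followed, with 0.92, -0.43 and 0.65 beside Nb3 and 0.61, 1.41 and 0.52 beside cpTi. In the interaction 0 of 13 were called, against 20.2% of all tested genes.

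**Figure D5:**
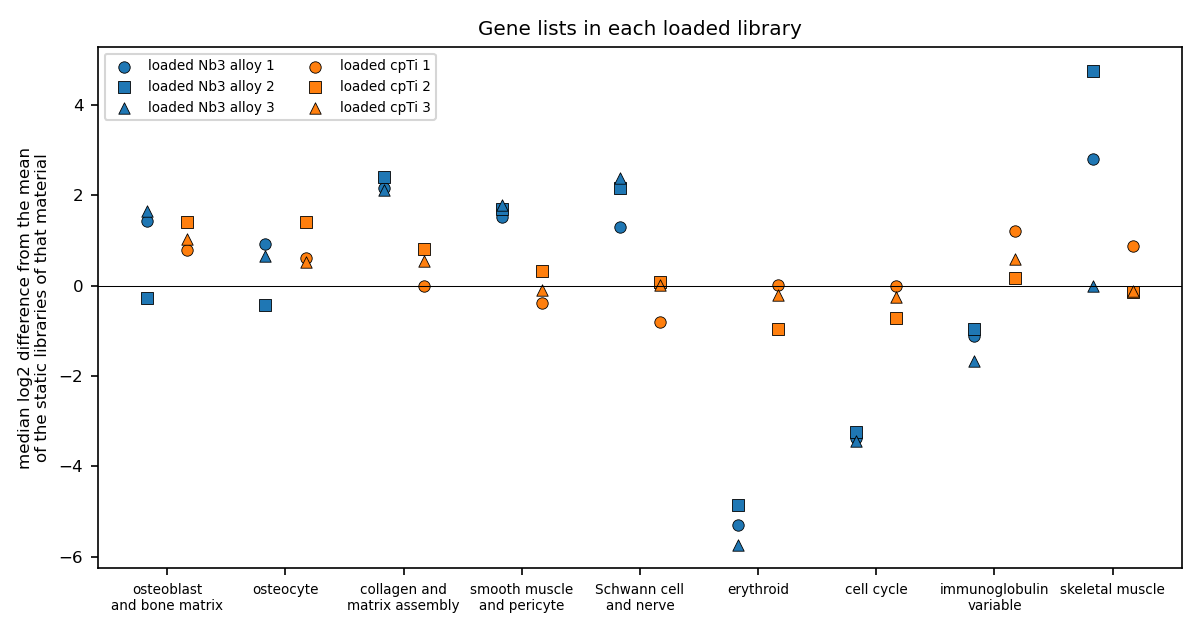
Median over each list's tested genes of the log2 difference between 1 loaded library and the mean of the static libraries of its material (y axis), for 9 lists (x axis), with Nb3 in blue, cpTi in orange and the marker shape giving the replicate. Erythroid and cell cycle genes separate the materials in all 3 replicates, and for osteoblast and osteocyte genes loaded Nb3 replicate 2 lies below the other 5 libraries.

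A panel of 12 bone remodelling genes had no interaction call. The transcription factors of osteoblasts gave 0.31 for Runx2 (interval -0.69 to 1.30) and -0.35 for Sp7 (-1.89 to 1.18). Among matrix and mineral genes, Alpl, the phosphatase of mineralisation, gave 0.34 and Bglap, osteocalcin, -0.07. Spp1, osteopontin, gave 1.18 (interval -0.04 to 2.40, adjusted p = 0.16). It measured 2189, 1784 and 3155 FPKM in loaded Nb3 and 542 to 1403 FPKM in the other 9 libraries.

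Dmp1, an osteocyte mineral protein, gave -0.41. Sost, the Wnt antagonist that osteocytes lower under strain, gave -1.64 with an interval from -3.95 to 0.67. Its loaded and static libraries overlapped beside Nb3, at 1044, 184 and 624 FPKM against 947, 1143 and 295 FPKM. Beside cpTi they stood at 386, 809 and 315 FPKM against 236, 93 and 390 FPKM. The signs of Sp7, Alpl, Bglap and Dmp1 were not stable to the loss of single libraries.

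Genes of resorption gave wide intervals. Ctsk, the collagen-degrading protease of osteoclasts, had an interaction of 1.37 (interval -0.40 to 3.13), with 3062, 743 and 2227 FPKM in loaded Nb3. Acp5, tartrate-resistant phosphatase, gave 0.45. Tnfsf11, which encodes RANKL, the signal for osteoclast formation, gave 1.13 (interval -0.05 to 2.32), and its decoy receptor Tnfrsf11b, osteoprotegerin, gave -0.12. In the osteoclast list 16 of 19 genes were not called, the median interaction was 0.44 and 12 of the 19 values were positive. Beside Nb3, 8 of its genes were called higher and 3 lower with loading, against 20.7% and 25.2% of all tested genes. The 3 interaction calls, near the 11.8% called negative over all genes, were Car2, Itgb3 and Traf6, all negative. Traf6 is the adaptor of the RANK receptor, and its call held only without loaded Nb3 replicates 2 or 3 or static cpTi replicates 1 or 3. Car2 is also the carbonic anhydrase of red cells and gave -3.99, whereas Itgb3, which platelets also carry, gave -1.38 and lost its call without any of 5 libraries (static Nb3 replicates 1 and 3, loaded cpTi replicates 2 and 3, static cpTi replicate 2). In the list of RANKL and coupling genes, 2 of 12 were positive, a share read against 8.42% over all genes, Efnb2 (1.67) and Ephb4 (1.09), a ligand and receptor pair between osteoclasts and osteoblasts. The Efnb2 call was lost without loaded Nb3 replicate 1, static Nb3 replicate 3, loaded cpTi replicate 3 or static cpTi replicate 2.

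The same interaction can be read as a difference between materials that appears with loading. The median absolute difference between Nb3 and cpTi in the 3089 genes was 1.17 under loading and 0.16 without, and over all tested genes 0.41 and 0.12. The material difference was larger under loading in 3036 of the 3089 and larger without loading in 53. The next counts are a description, since the genes were chosen by an interaction computed from the same 12 libraries. Of the 1285 genes with a positive interaction, 1102 (85.8%) had all loaded Nb3 libraries above the other 9, compared with 15.2% of all tested genes. Of the 1804 with a negative interaction, 1740 (96.5%) had them below the other 9, compared with 21.2%.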

How the data were processed

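The deposited table gives FPKM per gene, computed by the authors from RNA-seq of the 12 libraries. Tools listed in the submitters' processing notes, without role or order, are featureCounts 1.5.0-p3, HISAT2 2.0.5, DESeq2 1.20.0, fastp and CASAVA 1.8. For strand setting, annotation and genome build, the entry is "not given in the sources used here". Overlapping and antisense genes therefore cannot be told apart. Whole reads were recovered from the FPKM steps for 100% of values (tolerance 0.01 reads).

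All comparisons came from a single limma 3.58.1 model (R 4.3.3) of log2(FPKM + 1) with a mean for each group, trended and robust moderation, 8 residual degrees of freedom and two-sided Benjamini-Hochberg adjustment over 15268 genes. Fold changes on this scale understate the change of low genes. The code was tested on simulated data. Named genes were the 8 highest and 8 lowest interactions called in every fit without 1 library and averaging 5 FPKM in a group, up to 6 per direction of the opposite and shared classes, up to 4 per direction of the same-direction class, up to 4 called members per gene list, and 12 bone genes. A further part, cpTi effects without an Nb3 effect, found 0 genes. Members and lists were chosen with earlier results of these data known. Alternatives varied scaling, filter, pseudocount, moderation, weights, size, limma-voom on recovered reads, a replicate block and the omission of each library. Lists are described by counts and medians only.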

Additional observations from a re-analysis of the deposited data

Results flagged for a closer look

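The interaction term tests a difference between the loading effects of the materials, so every gene it called is a difference between groups under one contrast. It called 3089 genes, and 21 of these had effects of at least 1 in opposite directions. Among the genes named for opposite effects of at least 0.5, those higher with loading beside Nb3 and lower beside cpTi were Mfap4 (interaction 5.92), Igfbp6 (3.84), Coch (2.91), U2 (2.44), Cpxm2 (4.14) and Pthlh (3.61). Those of the reverse order were Crym (-3.65), Snord37 (-3.04), SNORD63 (-2.60), Bex4 (-3.90), Lepr (-3.03) and Mcpt1l1 (-3.64). Groups of 3 libraries are too small for flagging single outlying samples within a group, which was not done. The fits that left out 1 library at a time are given below.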

How the results depend on the processing

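Of the 135 named genes called in the interaction, 104 kept sign and call throughout, 31 lost the call in at least 1 alternative and 0 changed sign. The naming rule itself favours this, since some genes were chosen for a call in every left-out fit and others for a small p. Of all 3089 interaction genes, 1817 (58.8%) were called in every left-out fit. The 5 FPKM filter covered only 141 of the 158 named genes. Same-numbered libraries did not deviate together: r ran from -0.252 to 0.115, was over 0.1 in 1 of 18 pairs, and 0 libraries correlated best with their own number. With the replicate block 2608 interaction genes were called (1055 positive, 1553 negative), 0 beside cpTi, and 448 reached 1 beside neither material. Depth limits genes near 1 FPKM, which rest on few reads. Causes of the shifts below were not tested.

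Total reads scaling gave 844 positive calls and 1426 genes with the loaded Nb3 libraries above all others. It turned the list medians of respiratory chain, ribosomal, Atf4 and T and NK cell genes to -0.14, -0.025, -0.043 and -0.016. The single cpTi call became 0 with a 5 FPKM filter, limma-voom or a pseudocount of 0.1, 2 without a filter, 3 with plain moderation or quantile normalization and 7 with array weights. Requiring a size of 1 left 3475 calls beside Nb3, 1291 averaged calls and 88 interaction genes reaching 1 beside neither material, by construction. Genes with an effect beside cpTi alone numbered 2 with a 5 FPKM filter, limma-voom or no filter and 11 with array weights. Same-direction genes numbered 55 by limma-voom, 47 with the pseudocount of 0.1 and 198 from a size of 0.5. Opposite genes numbered 68, 78 and 127 in the same order. Genes reaching the size beside neither numbered 1323 with array weights and 44 from 0.5. Genes moved in both without a difference numbered 318 with the 5 FPKM filter, 810 by limma-voom and 784 with the pseudocount of 0.1.

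Leaving out 1 library at a time gave 1986 to 3159 interaction calls, 738 to 1292 positive and 1248 to 1914 negative. Positive calls were 738 without loaded cpTi replicate 1, 751 without static Nb3 replicate 3, 767 without static cpTi replicate 2 and 824 without loaded cpTi replicate 3. Calls ranged from 5599 to 6948 beside Nb3, 0 to 4 beside cpTi and 4544 to 6002 averaged. The classes ranged from 1708 to 2422 (Nb3 alone), 2 to 21 (cpTi alone, the highest without static cpTi replicate 1), 14 to 25 (same direction, with 24 and 25 without static cpTi replicates 2 and 3), 12 to 46 (opposite), 230 to 686 (neither, with 230 without loaded cpTi replicate 1) and 368 to 740 (both without a difference). Uncalled panel genes changed sign: Sp7 ran from -0.76 to 0.32, Alpl from -0.083 to 1.12, Bglap from -0.50 to 0.76, Dmp1 from -0.81 to 0.23, Acp5 from -0.24 to 1.29 and Tnfrsf11b from -0.44 to 0.36. With array weights Sp7 gave 0.18, Bglap 0.33, Dmp1 0.055 and Tnfrsf11b 0.43, and with quantile normalization Col1a1 gave -0.79.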

Other observations

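Several other gene groups had members with an interaction. The classical complement proteases and their inhibitor were positive together: C1s gave 2.82, C1r 1.90 and Serping1 1.85. Serping1 measured 868, 578 and 587 FPKM in loaded Nb3 and 123 to 291 FPKM in the other 9 libraries. Cd55, which protects cells from complement, gave -1.49. In the complement list of 15 genes 4 were called positive, against 8.42% over all tested genes, and 1 negative, with a median of 0.35.

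In the metal handling list 14 of 19 genes were not called, and the 3 positive and 2 negative calls lie near the 8.42% and 11.8% over all tested genes, with a median of 0.22. Mt2A, a metallothionein that binds zinc and copper, gave 1.78, and Slc39a14, an importer of zinc and iron, 1.62. Atp7b, a copper exporter, measured 0.275, 0.0943 and 0.197 FPKM in loaded Nb3 and 5 to 9.43 FPKM in the other 9 libraries, with an interaction of -2.84. Slc30a10, a manganese exporter, gave -2.09. Erythroid markers fell in the same libraries, and their part in these values was not tested. In the heat shock list 5 of 15 genes were positive, 1 negative and 9 not called, with a median of 0.21. Over all tested genes 8.42% were called positive and 11.8% negative. Its positive members included Hspb1 (3.22), Hspb8 (2.96) and Cryab (2.51), all small heat shock proteins. Of 19 antioxidant genes 5 were negative, against 11.8% over all tested genes, and none was positive, although the median was 0.19. The negative ones included Cat (-1.56), Prdx2 (-1.56) and Gclm (-2.21). The part of the erythroid genes in these values was not tested either. Rsad2, an interferon-induced antiviral enzyme, gave -4.47, although the median of the 16 interferon response genes was -0.06. No adipocyte gene was called (0 of 13), against 20.2% of all tested genes, and the median interaction of the list was -1.19. That median ran from -1.57 without loaded cpTi replicate 2 to -0.30 without loaded cpTi replicate 1.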
